A study of Homo sapiens with 6 samples.

Results

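The CHD genes encode chromodomain helicase DNA-binding proteins, chromatin remodellers that use ATP to slide, space or evict nucleosomes. They were followed here in K562, a human erythroleukemia cell line from chronic myeloid leukemia, with and without induction of the ETS transcription factor ERG. The members were every probe set of the Affymetrix U133 Plus 2.0 array whose platform annotation names 1 gene, that gene being CHD1 to CHD9 or CHD1L. This gave 36 of 54613 probe sets and 10 of 19775 genes. The arrays cover 3 clones of K562 pTRE-ERG, named CL4, CL9 and CL46, each a culture grown from 1 stable transfectant. Each clone was grown with 1 µg/ml doxycycline (DOX) daily for 8 days, which switches on the introduced ERG (labelled ERG-induced, 3 arrays), or without DOX (labelled non-induced, 3 arrays). A legend of the study gives a shorter time of induction than its labels and methods do. All cells carry the inducible construct. Only the induced cultures received DOX, so ERG and DOX as sources of a difference cannot be told apart.

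The family falls into subfamilies by domain structure. CHD1 and CHD2 carry a DNA-binding domain beside paired chromodomains, and CHD1 reads methylated histone H3 at active genes and works with the transcription elongation machinery. CHD3, CHD4 and CHD5 carry PHD fingers and are alternative motors of NuRD, a complex that joins remodelling to histone deacetylation. CHD6, CHD7, CHD8 and CHD9 are large proteins with BRK domains, found at enhancers and promoters. CHD1L lacks chromodomains and has instead a macro domain that binds poly(ADP-ribose) at sites of DNA damage. In the blood lineages CHD4 is best known as the NuRD motor that erythroid and lymphoid transcription factors recruit.

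Each deposited value is a ratio to the median that its probe set had over the 6 arrays. The ratios were put on a log2 scale, so 0 is the probe set's middle level and 1 unit is a change of 2-fold. They carry no brightness, so the level of one CHD gene cannot be set against that of another, and neither detection of a probe set nor the cell type can be checked on them. Calls of higher or lower followed the cut-offs of the study, at least a 2-fold change together with p under 0.05 (limma, two-sided, unadjusted). These cut-offs carry no correction for the number of features. After Benjamini-Hochberg adjustment, 0 of the 36 probe sets and 0 of the 10 genes passed an adjusted p of 0.05 (limma), while 13 probe sets and 2 genes had an unadjusted p under 0.05. Over all features, 0 of 54613 probe sets and 0 of 19775 genes passed the adjusted cut-off. An unadjusted p under 0.05 (limma) was held by 7180 of all probe sets and 2544 of all genes. The lowest adjusted p in the family was 0.162 for a probe set and 0.242 for a gene. SE stands for the standard error of a log2 difference between 3 arrays and 3, and p-values rest on the spread between clones.

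The arrays gave these limits as a whole. The log2 difference of ERG, averaged over its 4 probe sets, was -0.76 (SE 0.63, adjusted p = 0.671, limma), with -1.35, -0.80 and -0.14 in CL4, CL9 and CL46, below 0 in all 3 clones. Where those probe sets lie relative to the introduced sequence is not known. On the ERG values alone, exchanged labels cannot be told apart from probe sets that miss that sequence. Such an exchange would turn every direction given here. The arrays are therefore named by their labels. The median ratio over every probe set came to 0.957, 0.898 and 0.998 in the arrays labelled ERG-induced (CL4, CL9, CL46) and 1.01, 0.990 and 1.07 in those labelled non-induced. Of 12 erythroid markers of K562, 7 were measured by probe sets with 1 symbol. These ran from -1.67 to 0.71 with 3 above 0, and 1 was called lower (TFRC, the transferrin receptor, log2 difference -1.67). Of 6 stromal markers, which ran from -1.22 to 1.59 with 3 above 0, 1 was called lower (COL1A1, -1.09). Of 4 lymphocyte markers measured, which ran from -1.71 to 0.54 with 2 above 0, 1 was called lower (CD3D, -1.23). COL1A1 lost its call without CL4 (-0.85) or CL9 (-1.11), CD3D without CL9 (-1.08) or CL46 (-1.21), and both with centred arrays (-0.99 and -1.13) and after quantile normalization (-0.95 and -1.01). Of all genes 6.32% were called lower. Of 18S ribosomal RNA, 3 control probe sets averaged 1.21, 0.59 and 0.82 log2 units more with induction than without it in CL4, CL9 and CL46.

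Over the family, 11 of the 36 probe sets (30.6%) were called lower in the arrays labelled ERG-induced and 0 were called higher. Among all probe sets 8.16% were called lower and 2.82% higher. The called probe sets belong to 6 genes, and 7 of the 11 lie in CHD1 and CHD9, which hold 9 of the 36, so the calls are not independent of each other. With 1 mean value per gene, 2 of 10 genes (20.0%), CHD1 and CHD9, were called lower and 0 higher, where 6.32% of all genes were called lower and 3.12% higher. In 16 probe sets (44.4%) the 3 arrays labelled ERG-induced all lay below the 3 labelled non-induced, against 15.1% of all probe sets, and in 1, of CHD4, they all lay above, against 7.14%. At the gene level, 4 of 10 did so downwards (CHD1, CHD6, CHD9 and CHD1L), against 13.6% of all genes. The groups of CHD6 and CHD1L were barely parted. In CHD6 the highest array labelled ERG-induced lay at -0.085 and the lowest labelled non-induced at -0.067. In CHD1L these lay at -0.293 and -0.289. The median log2 difference was -0.73 over the CHD probe sets and -0.46 over the CHD genes, beside -0.09 over all probe sets and -0.03 over all genes. In RNA of whole cultures, fewer cells that express a gene and less of its RNA per cell cannot be told apart.

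**Figure D1:**
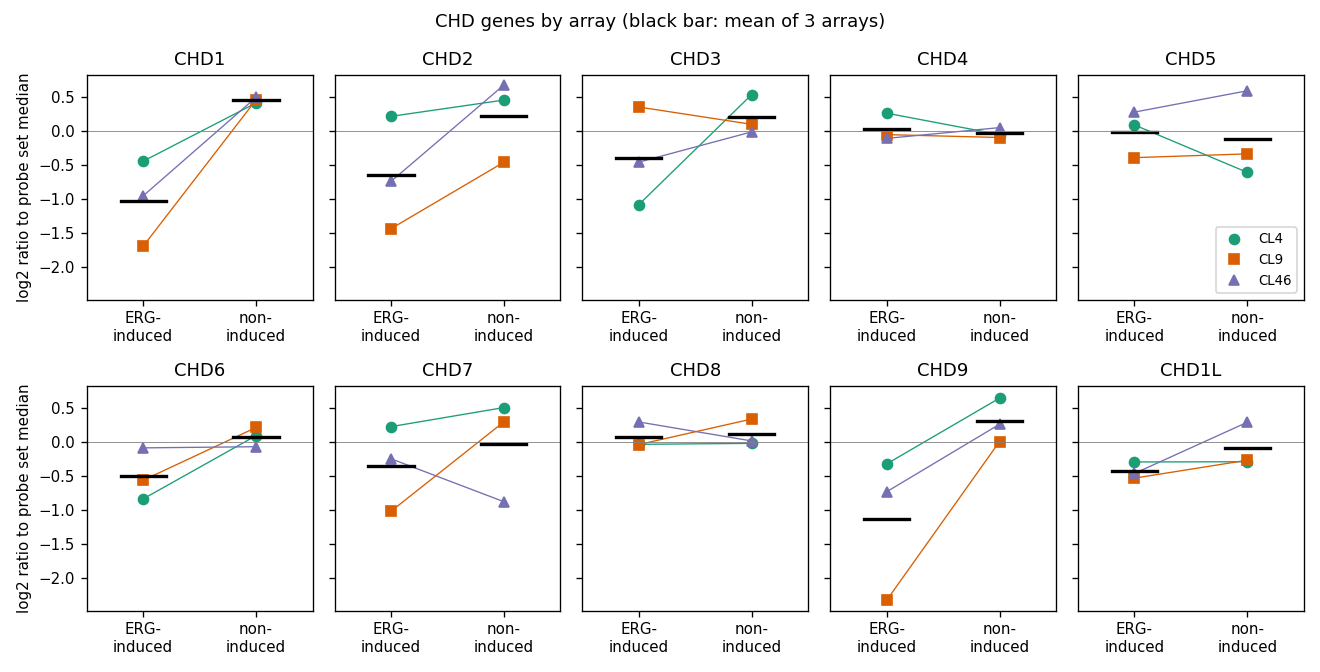
Mean log2 ratio over the probe sets of each CHD gene (y axis, relative to the median of each probe set) in the arrays labelled ERG-induced and non-induced, with a line joining the 2 arrays of a clone and a black bar at the mean of 3 arrays. CHD1 and CHD9 lie lower in the arrays labelled ERG-induced in all 3 clones, and CHD4 and CHD8 lie near 0 in both groups.

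Because ERG binds DNA through the ETS core GGAA, promoter windows of the members called lower at the gene level and of a member not called are shown for reference. RefSeq windows (GRCh38.p14), 250 bases before to 50 after a start listed in the reference, were used for 7 of the 10 members. They came to 12 windows, since CHD9 and CHD1L have several starts. No window of CHD5, CHD6 or CHD7 was used. Whether the reference holds one for these genes is not addressed here, so the member counts below cover only the 12 windows used. CHD1 itself spans chr5:98853985-98929007, CHD9 chr16:53054991-53327497 and CHD4 chr12:6570082-6607379 in this build. The windows of CHD3, CHD4 and CHD8 lie inside the span of the gene, not at its outer end. Capitals mark GGAA or its complement TTCC, on either strand, in CHD1 (chr5:98928958-98929257, minus strand), the first CHD9 start (chr16:53054741-53055040, plus strand) and CHD4 (chr12:6606402-6606701, minus strand).
CHD1: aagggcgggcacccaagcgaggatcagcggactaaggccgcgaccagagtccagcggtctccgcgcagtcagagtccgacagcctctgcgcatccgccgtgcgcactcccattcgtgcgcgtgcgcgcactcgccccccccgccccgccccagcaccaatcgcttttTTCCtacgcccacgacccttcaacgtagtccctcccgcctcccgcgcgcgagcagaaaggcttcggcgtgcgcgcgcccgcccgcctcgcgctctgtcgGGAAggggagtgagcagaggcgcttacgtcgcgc
CHD9: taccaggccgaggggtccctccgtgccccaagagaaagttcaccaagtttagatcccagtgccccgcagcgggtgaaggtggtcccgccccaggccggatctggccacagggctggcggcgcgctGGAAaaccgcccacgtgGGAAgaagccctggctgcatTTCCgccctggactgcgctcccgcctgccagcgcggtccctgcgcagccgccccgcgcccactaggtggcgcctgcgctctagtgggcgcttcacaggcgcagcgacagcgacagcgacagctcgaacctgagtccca
CHD4: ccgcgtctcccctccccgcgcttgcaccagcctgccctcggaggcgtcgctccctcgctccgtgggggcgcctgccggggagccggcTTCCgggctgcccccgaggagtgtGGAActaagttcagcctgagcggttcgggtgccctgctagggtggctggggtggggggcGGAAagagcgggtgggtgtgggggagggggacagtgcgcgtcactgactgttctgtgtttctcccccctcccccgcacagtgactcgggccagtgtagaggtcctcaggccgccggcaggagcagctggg
GGAA occurred 2 times in the CHD1 window and 3 times each in the CHD9 and CHD4 windows, where the median of 35116 such windows was 3 and 95.5% held it at least once. The longer CCGGAA, which contains the core, was searched on both strands and lay in 1 window of CHD4 and 1 of CHD1L, 2 of the 12, and in 17.2% of all windows. A match is a run of letters, not a shown binding site. The other 3 CHD9 windows held the core 0, 4 and 4 times.

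CHD1 was called lower in both of its probe sets. CHD1, which spaces nucleosomes behind RNA polymerase, had gene-level log2 ratios of -0.44, -1.70 and -0.95 in CL4, CL9 and CL46 of the arrays labelled ERG-induced, against 0.42, 0.47 and 0.50 in those labelled non-induced. The non-induced arrays lay within 0.1 of each other, all induced arrays lay below them, and the clones differed by -0.86, -2.16 and -1.46. CHD1 was 2.81-fold lower, with a log2 difference of -1.49 (SE 0.37, adjusted p = 0.242, limma). Its pair of probe sets gave almost the same value, -1.50 (SE 0.38) for 204258_at and -1.48 (SE 0.41) for 235791_x_at. The call of the gene was lost without CL46 (-1.51), as was that of 204258_at (-1.52), and that of 235791_x_at without CL9 (-1.18) or CL46 (-1.50).

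CHD2, the closest relative of CHD1 and a gene of developmental epilepsy, had log2 differences below 0 in all 6 of its probe sets and was called in 1. Probe set 243751_at had log2 ratios of -0.08, -2.10 and -1.20 in CL4, CL9 and CL46 of the arrays labelled ERG-induced, against 0.50, 0.07 and 0.75 in those labelled non-induced, with no overlap between the groups. It was 2.96-fold lower, with a log2 difference of -1.57 (SE 0.57, adjusted p = 0.342, limma), and was no longer called at -1.26 without CL9 and -1.38 without CL46. Smaller differences of 225077_at (-0.78, SE 0.28) and 228999_at (-0.67, SE 0.32) came without overlap between groups but stayed under a fold of 2. The values of 1554014_at (-0.74) and 1554015_a_at (-0.82) overlapped. In contrast, 203461_at scattered over both groups, with clone differences of 1.29, 0.57 and -3.98. Averaged over its probe sets, CHD2 had 0.22, -1.44 and -0.74 (ERG-induced), against 0.46, -0.46 and 0.68 (non-induced) for CL4, CL9 and CL46, with overlapping groups. The gene-level difference of CHD2 was -0.88 (SE 0.54, adjusted p = 0.559, limma), with -0.24, -0.98 and -1.42 in the clones, and was not called.

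The NuRD motors gave 0 calls in 7 probe sets, where 8.16% of all probe sets were called lower and 2.82% higher. So few probe sets cannot set 0 calls apart from those shares. CHD4, the NuRD motor of most cells, had gene-level log2 ratios of 0.27, -0.05 and -0.10 in CL4, CL9 and CL46 of the arrays labelled ERG-induced, against -0.05, -0.09 and 0.06 in those labelled non-induced, all 6 within 0.4 of each other. Its difference was 0.07 (SE 0.24, 95% interval -0.52 to 0.65, adjusted p = 0.941, limma), an interval that holds no 2-fold change in either direction. Probe set 201183_s_at was the only member probe set whose arrays labelled ERG-induced all lay above the others, by a mean of 0.28, while 201184_s_at gave -0.21 and 201182_s_at 0.13.

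CHD3, an alternative motor of NuRD, had gene-level log2 ratios of -1.08, 0.36 and -0.45 (ERG-induced), against 0.54, 0.10 and -0.01 (non-induced) for CL4, CL9 and CL46. It differed by -0.61 (SE 0.43, 95% interval -1.67 to 0.45). Its probe set 208806_at gave -2.15, 0.71 and -0.68 (ERG-induced), against 0.93, 0.27 and -0.33 (non-induced) for CL4, CL9 and CL46. Of these, CL4 held both the lowest induced and the highest non-induced array, while 208807_s_at differed by -0.21. Without CL4 the gene-level difference was -0.10. CHD5, a NuRD motor of neural tissue and a tumour suppressor, had 0.09, -0.39 and 0.28 (ERG-induced), against -0.61, -0.33 and 0.60 (non-induced) in the same order of clones. It differed by 0.11 (SE 0.41, 95% interval -0.89 to 1.11), with 0.70, -0.06 and -0.31 in the clones and -0.19 without CL4. The groups of both genes overlapped.

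CHD9, also known as a chromatin modulator of mesenchymal progenitors, gave 5 of the 11 calls. Its gene-level log2 ratios were -0.32, -2.34 and -0.73 in CL4, CL9 and CL46 of the arrays labelled ERG-induced, against 0.65, 0.01 and 0.26 in those labelled non-induced. The arrays labelled ERG-induced all lay below the others, with clone differences of -0.97, -2.34 and -0.997, and the gene was 2.71-fold lower, with a log2 difference of -1.44 (SE 0.57, adjusted p = 0.383, limma). The gene-level call was near its threshold (95% interval -2.85 to -0.02). It was lost with array medians set to 0 (-1.33) and with any clone left out (-1.67 for CL4, -0.98 for CL9 and -1.66 for CL46), and it stood with the median over the 7 probe sets (-1.51).

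Most single probe sets of CHD9 had a smaller SE than the gene mean, the exceptions being 239654_at and 220586_at. Of 7, 5 were called lower and a sixth, 235388_at, was at -1.03, outside the p cut-off (SE 0.42, adjusted p = 0.386, limma). Probe set 212615_at had log2 ratios of -0.97, -1.84 and -1.44 in CL4, CL9 and CL46 of the arrays labelled ERG-induced, against 0.58, 0.73 and 1.06 in those labelled non-induced. It was 4.62-fold lower with the lowest adjusted p in the family (log2 difference -2.21, SE 0.34, adjusted p = 0.162, limma), and it kept its call without each clone in turn. Probe set 212616_at was 4.27-fold lower (log2 difference -2.09, SE 0.53) and lost its call without CL46 (-1.91).

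The other CHD9 calls were smaller or more scattered. Probe sets 229586_at and 242157_at differed by -1.24 and -1.08, and both lost their calls without CL9 (-1.07 and -1.05) or CL46 (-1.13 and -0.94). The call of 242157_at was also lost with centred arrays (-0.98), after quantile normalization (-0.87) and with 0.1 added before log2 (-0.98). The lowest value of the family was that of 239654_at, which had -0.94, -4.24 and -1.30 (ERG-induced), against 0.67, 0.56 and 1.32 (non-induced) for CL4, CL9 and CL46. It differed by -3.01 (SE 0.94), and by -3.21 without CL46, where its call was lost. The highest was also a CHD9 probe set, 220586_at, at 0.61 (SE 1.87), with -0.56, -1.85 and 4.24 in the clones. That probe set gave 0.84, -4.13 and 1.28 (ERG-induced), against 1.41, -2.28 and -2.96 (non-induced) for CL4, CL9 and CL46, which set no group apart.

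**Figure D2:**
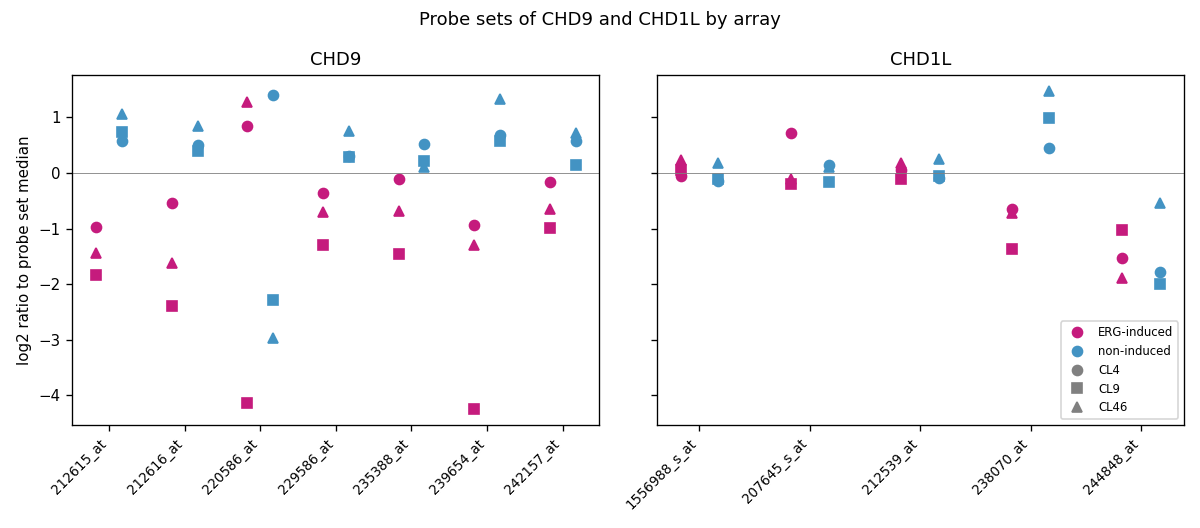
Log2 ratio (y axis, relative to the median of each probe set) of the 7 probe sets of CHD9 and the 5 of CHD1L in each array labelled ERG-induced (left of each pair) or non-induced (right), with a symbol per clone. In 6 CHD9 probe sets the groups do not overlap, 220586_at scatters in both, and of CHD1L only 238070_at separates the groups.

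CHD7, the gene of CHARGE syndrome and an enhancer-bound remodeller, had probe sets that disagreed. Probe set 218829_s_at had log2 ratios of -0.52, -0.89 and -0.62 in CL4, CL9 and CL46 of the arrays labelled ERG-induced, against 0.43, 0.38 and 0.40 in those labelled non-induced. It was 2.11-fold lower, with a log2 difference of -1.08 (SE 0.26, adjusted p = 0.214, limma), just inside the fold threshold, with an even -0.95, -1.27 and -1.02 in the clones. It was not called without CL9 (-0.98), without CL46 (-1.11), with array medians set to 0 (-0.97) or after quantile normalization (-0.89). Probe set 226123_at, -0.96 with an unadjusted p of 0.0226 (limma), missed on the fold alone. The others gave 0.19 (222755_s_at) and 0.55 (220619_at, SE 1.40). The 4 averaged to 0.23, -1.02 and -0.25 (ERG-induced), against 0.51, 0.30 and -0.88 (non-induced) for CL4, CL9 and CL46, and the groups overlapped. The gene-level difference of CHD7 was -0.32 (SE 0.52, 95% interval -1.59 to 0.95), with -0.28, -1.32 and 0.63 in the clones, and it turned to 0.18 without CL9.

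CHD6, a relative of CHD7, was called in 1 of 4 probe sets. Probe set 225026_at had log2 ratios of -0.26, -1.13 and -0.38 in CL4, CL9 and CL46 of the arrays labelled ERG-induced, against 0.26, 0.22 and 0.79 in those labelled non-induced, without overlap. Its difference, -1.01 (SE 0.37, adjusted p = 0.340, limma), lay at the fold threshold and was lost without CL4 (-1.26), CL9 (-0.84) or CL46 (-0.93), with centred arrays (-0.91) and after quantile normalization (-0.81). Beside it, 225031_at gave -0.95, 234681_s_at 0.19 and 1555463_a_at -0.54 (SE 1.30). At the gene level CHD6 had -0.84, -0.56 and -0.08 (ERG-induced), against 0.10, 0.22 and -0.07 (non-induced) for CL4, CL9 and CL46, and the groups were parted by less than 0.1. The gene-level difference was -0.58 (SE 0.29, 95% interval -1.29 to 0.14, adjusted p = 0.471, limma).

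CHD8, a gene of autism that restrains beta-catenin targets and binds the insulator protein CTCF, is represented by 1 probe set, 212571_at. Its log2 ratios were -0.03, -0.04 and 0.30 in CL4, CL9 and CL46 of the arrays labelled ERG-induced, against -0.02, 0.34 and 0.02 in those labelled non-induced. The groups overlapped, and the difference was -0.04 (SE 0.25, 95% interval -0.66 to 0.58, adjusted p = 0.972, limma), which holds no 2-fold change in either direction. The sign turned with array medians set to 0 (0.068), after quantile normalization (0.055) and without CL9 (0.13).

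CHD1L, the remodeller recruited by poly(ADP-ribose), was called lower in 1 of its 5 probe sets. Probe set 238070_at had log2 ratios of -0.64, -1.37 and -0.72 in CL4, CL9 and CL46 of the arrays labelled ERG-induced, against 0.44, 0.99 and 1.48 in those labelled non-induced, and the groups lay apart. It was 3.68-fold lower, with a log2 difference of -1.88 (SE 0.40, adjusted p = 0.194, limma), and kept its call without each clone in turn. The probe sets 1556988_s_at, 207645_s_at and 212539_at gave 0.10, 0.10 and 0.02, each with an SE under 0.4. The fifth, 244848_at, scattered with 0.25, 0.97 and -1.35 in the clones (mean -0.04, SE 0.50) and was the only member with a median ratio below 1, at 0.317. Averaged over the probe sets, CHD1L had -0.29, -0.53 and -0.46 (ERG-induced), against -0.29, -0.27 and 0.29 (non-induced) for CL4, CL9 and CL46, and the groups were parted only in the third decimal. Which transcript of CHD1L each probe set matches is not known here, and the gene-level difference, -0.34 (SE 0.27, 95% interval -1.02 to 0.33), averages all 5. It was -0.13 without CL46, -0.12 as the median over the probe sets and -0.64 without those ending in _s_at or _x_at, and was called in none of these.

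**Figure D3:**
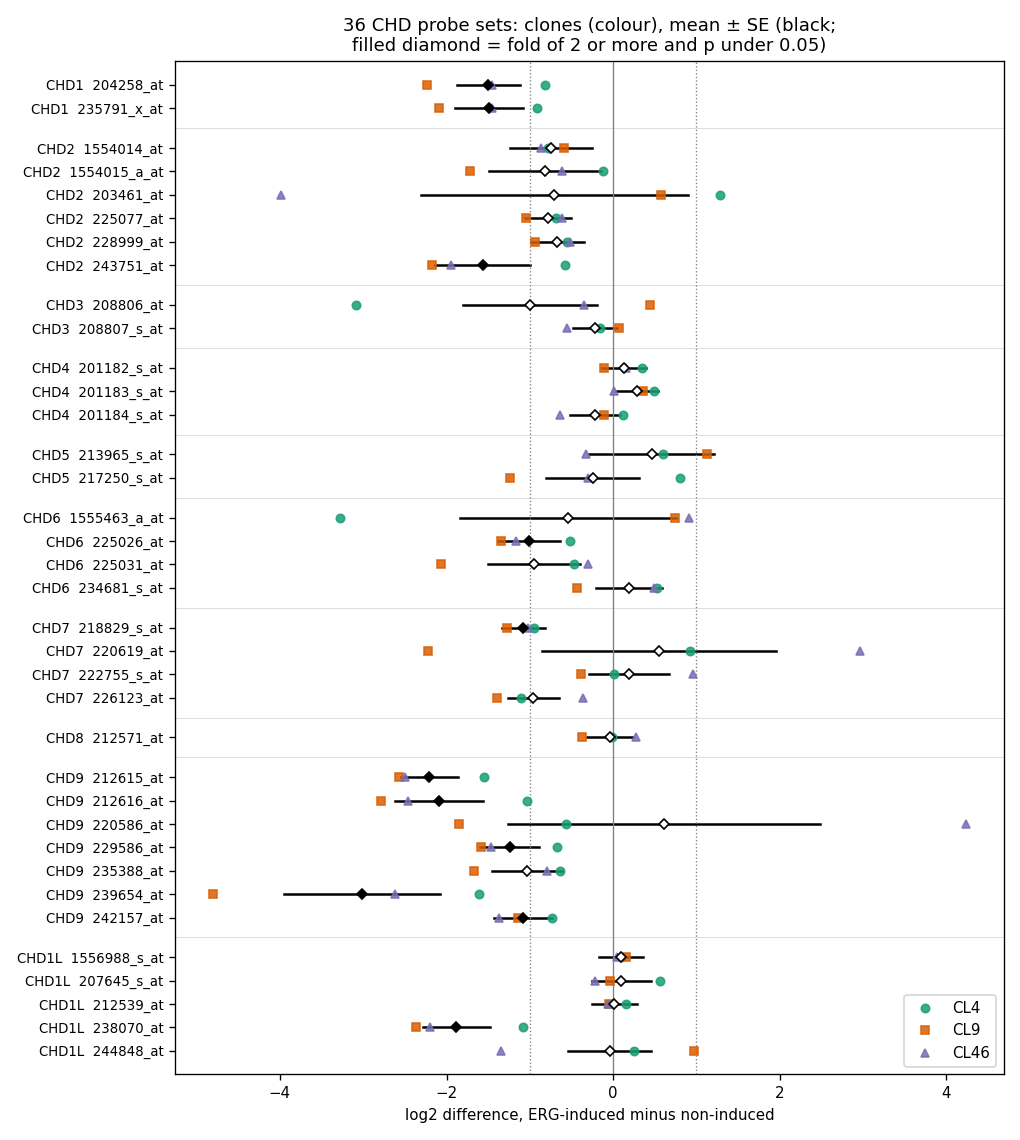
Log2 difference (x axis), induced minus non-induced by label, of the 36 CHD probe sets, with coloured symbols for the clones, diamonds and black lines for the mean ± SE of the limma fit, and dotted lines at a fold of 2. Filled diamonds, the 11 called probe sets, all lie to the left, 5 of them in CHD9, and the 4 probe sets with an SE above 1 spread to both sides.

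The counts by subfamily were not set against each other in a test, and over all probe sets 8.16% were called lower and 15.1% lay lower without overlap. Of all 54613 probe sets, 29703 were below 0. Probe sets of 1 gene are not independent of each other. Of 16 probe sets of CHD6 to CHD9, 7 were called lower and 10 did not overlap downwards, with a median of -0.98. CHD9 gave 5 of these 7 calls, and the gene-level differences of CHD6, CHD7 and CHD8 were -0.58, -0.32 and -0.04. Of 8 probe sets of CHD1 and CHD2, 3 were called lower, 5 did not overlap and all 8 were below 0, with a median of -0.80. CHD1 gave 2 of these 3 calls. Of 7 probe sets of CHD3 to CHD5, 0 were called and 4 were below 0, with a median of -0.21. Of the 5 probe sets of CHD1L, 1 was called lower and 2 were below 0, with a median of 0.02. Ordered by gene-level difference, the family ran CHD1, CHD9, CHD2, CHD3, CHD6, CHD1L, CHD7, CHD8, CHD4 and CHD5. No pair of neighbours in this order lay further apart than the larger of their SEs.

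In 10 of the 11 called probe sets the spread between clones was larger in the arrays labelled ERG-induced (median SD 0.47) than in those labelled non-induced (median SD 0.27), which also held for 79.5% of all probe sets called lower and for 56.2% of all probe sets. The fall was largest in CL9 in 10 of the 11, where 58.1% of all probe sets called lower had their largest fall in CL9. It was smallest in CL4 in all 11. The matching share of all probe sets called lower was not taken, so this is not read as a trait of the CHD probe sets. The median differences of the 11 were -0.91, -2.17 and -1.47 in CL4, CL9 and CL46. The ribosomal RNA controls were higher by 1.21, 0.59 and 0.82 in the same clones. The log2 difference of 3' minus 5' control probe sets changed with induction by a mean of 0.22 (SD over clones 0.37) for actin. For GAPDH it changed by 0.02 (SD 0.04). The part of RNA quality in these falls was not tested.

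The suffixes _s_at and _x_at of probe set names mark some that may match several transcripts. The suffix _a_at, of 1554015_a_at (CHD2) and 1555463_a_at (CHD6), was not counted with them. Of the 12 CHD probe sets ending in _s_at or _x_at, 2 were called lower, and of the other 24, 9 were. Among all probe sets these shares were 7.13% and 8.56%. Of the family's probe sets 4 (11.1%) had an SE above 1, in CHD2, CHD6, CHD7 and CHD9, against 27.2% of all probe sets.

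Outside the family, 22 other ATPases of the SNF2 class, the class to which CHD proteins belong, gave 9 calls lower and 0 higher, with a median of -0.53, where 6.32% of all genes were called lower and 3.12% higher. SHPRH, a ubiquitin ligase with a SNF2 motor, had gene-level log2 ratios of -0.75, -0.94 and -1.01 in CL4, CL9 and CL46 of the arrays labelled ERG-induced, against 0.49, 1.08 and 0.87 in those labelled non-induced, and was 3.28-fold lower. SMARCAD1, which acts in heterochromatin upkeep and DNA end resection, was 4.21-fold lower, HELLS, which supports DNA methylation, 3.97-fold, and ATRX, a remodeller of repeated DNA, 3.80-fold, each with an adjusted p of 0.192 (limma). These 4 kept their calls without each clone in turn.

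Of 10 genes that work with CHD1 in elongation, 2 were called lower and 0 higher, with a median of -0.34. That is the same count of calls as in the 10 CHD genes, beside 6.32% of all genes called lower. Of the 10 partners, 9 lay below 0, as did 10235 of all 19775 genes. At a fold of 1.5, 4 of these partners were called lower, beside 8.85% of all genes. LEO1, a subunit of the PAF1 complex, was 4.23-fold lower, with a log2 difference of -2.08 (SE 0.49, adjusted p = 0.227, limma), a call lost without CL46 (-2.06). SUPT16H, of the histone chaperone FACT, was 4.34-fold lower, with -0.45, -2.87 and -3.04 in the clones, a call lost without CL9 (-1.74) or CL46 (-1.66). Of 12 NuRD subunits other than the CHD motors, 1 was called lower and 0 higher, with a median of -0.04. That was HDAC2, a histone deacetylase, at -1.52 (SE 0.60), whose groups overlapped, and which was not called without CL9 (-1.30), without CL46 (-1.18), with centred arrays (-1.42) or after quantile normalization (-1.32). Of 6 CHD8 partners and 6 genes of ADP-ribosylation around CHD1L, 0 were called lower and 0 higher, with medians of -0.04 and -0.10. At the gene level, 1 of the 4 lists of partners thus had a median more than 0.2 from that of all genes.

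**Figure D4:**
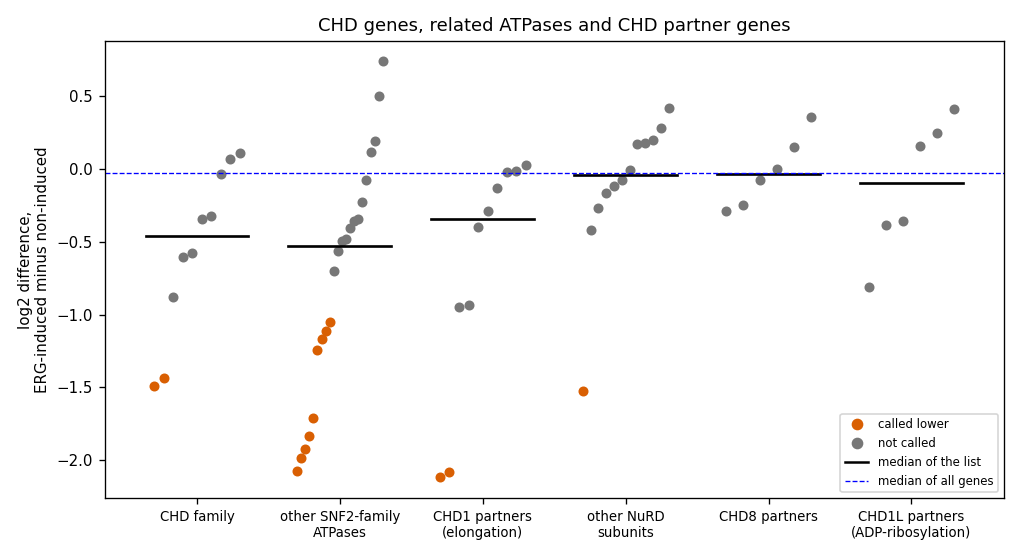
Gene-level log2 difference (y axis), induced minus non-induced by label, of the 10 CHD genes, 22 other SNF2-class ATPases and 4 lists of CHD partner genes, each ordered from lowest to highest. Orange points were called lower, black bars are list medians and the dashed line is the median of all genes, -0.03.

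Across the 6 arrays the members did not share 1 profile. Pearson's r between pairs of CHD genes ran from -0.73 to 0.94 over 45 pairs, with a median of 0.16. The highest was between CHD1 and CHD9 (0.94), with 0.88 for CHD2 and CHD9 and 0.82 for CHD1 and CHD2. The lowest were CHD4 with CHD6 (-0.73) and CHD4 with CHD3 (-0.70). These are descriptions over 6 arrays that share the contrast of induction. The mean profile of the 10 genes was -0.22, -0.77 and -0.32 in CL4, CL9 and CL46 of the arrays labelled ERG-induced, against 0.17, 0.03 and 0.15 in those labelled non-induced. The genes with the most similar profile were TUBD1 (delta tubulin, r = 0.999), AP3M1 (a subunit of the AP-3 adaptor of vesicles), SNW1 (a splicing and transcription cofactor), PRR14L and LRBA (a protein of vesicle traffic), the last 4 at r = 0.998. TUBD1 itself was at -1.67 (SE 0.48), called lower but not without CL46 (-1.78). These genes were picked for the highest r among all genes outside the family. The profile they were picked on already differs between the groups, so their falls follow from that choice.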

How the data were processed

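RNA of 3 K562 pTRE-ERG clones, grown with or without DOX, was hybridized to Affymetrix U133 Plus 2.0 arrays, 6 in number. The authors used GeneSpring, and what they deposited are linear ratios of each probe set to its median over all arrays. A median of 1 (within 1e-05) was found for 50737 probe sets and a lower one for 3938. How background and array scale were treated earlier is not stated in the sources used. Brightness is lost, so dim probe sets could not be filtered, and the number of arrays limits the precision. Tests left out the 62 control probe sets. Of the other 54613, 41091 had 1 gene symbol, 1801 several and 11721 none, and 41037 of the 41091 matched a RefSeq gene (GRCh38.p14) by gene ID.

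Ratios were turned to log2 and, for genes, averaged over probe sets. Groups were compared with limma 3.58.1 (R 4.3.3), lmFit and eBayes, two-sided, adjusted over all 54613 probe sets or 19775 genes. The fit was tested on simulated data. The clone was no block in the main model. Both arrays of a pair come from 1 clone, and their deviations from the group means correlated over genes at 0.04, 0.05 and 0.03 (CL4, CL9, CL46). Alternatives were the block, array centring, quantile normalization, no moderation, other thresholds, 0.1 added before log2, other summaries over probe sets, and each clone left out. The members and gene lists were chosen with earlier results of these data known. Named were all members, every called member probe set, the lowest and highest, up to 4 called genes per list by smallest p, and the 5 genes closest in profile.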

Additional observations from a re-analysis of the deposited data

How the results depend on the processing

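With the clone as a replicate block, the paired fit called the same 11 CHD probe sets and 2 CHD genes lower, and 0 higher. It called 8.11% of all probe sets and 6.39% of all genes lower. The count of CHD genes lower was 1 with each array centred on its median, without moderation of the variances, at p under 0.01, and without probe sets ending in _x_at or _s_at, since CHD9 lost its call in each. Of all genes, 5.05%, 4.75%, 2.72% and 6.84% were called lower in these settings, in the same order. The count of CHD probe sets lower was 5 of 36 at p under 0.01, beside 3.30% of all probe sets. Leaving out each clone in turn gave 3 to 10 CHD probe sets and 0 to 1 CHD genes lower. Of all probe sets, 7.66% were called lower without CL4 (CHD: 10 of 36), 6.63% without CL9 (5 of 36) and 5.71% without CL46 (3 of 36). Of all genes, 6.60% were called lower without CL4 (CHD: 1 of 10) and 5.47% without CL9 (1 of 10). Of the 11 calls, dropping CL4 left 10, dropping CL9 left 5 and dropping CL46 left 2, with 4 arrays in each fit, and 8 remained with centred arrays and 8 after quantile normalization. Of all probe sets, 6.96% were called lower with centred arrays and 6.38% after quantile normalization. The sign turned for 4 genes that were not called: CHD8 with centred arrays (0.068), after quantile normalization (0.055) and without CL9, CHD4 and CHD5 without CL4, and CHD7 without CL9. With each clone left out in turn, CHD4 ran from -0.058 to 0.18, CHD5 from -0.19 to 0.32, CHD7 from -0.80 to 0.18 and CHD8 from -0.20 to 0.13. Centring moved the median of all genes to 0.08 and quantile normalization to 0.11, from -0.03. The cause of the lost calls was not tested. The alternatives for the related lists and other genes named were added after seeing the data. Signal over background is unknown in these ratios.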
